A study of Homo sapiens with 6 samples.

Results

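The MHC class I antigen presentation genes measured here were B2M, HLA-B, HLA-C, HLA-E, TAP1, TAP2, TAPBP, PSMB9 and NLRC5. They were chosen by name, with all probe sets that the platform's annotation gives to 1 of them alone. This gave 9 genes of 19775 and 23 probe sets of 41091. Expression was measured on 6 Affymetrix arrays of A2058, an established human melanoma cell line, as log2 probe set values. The 3 lines were TET2WT, which overexpresses the wild-type construct of TET2, a dioxygenase that converts methylcytosine in DNA into hydroxymethylcytosine, TET2M, which overexpresses a construct also labelled Mut, and Mock. Each line was grown in high glucose (4.5 g/L) or in normal glucose (1 g/L) for 7 days, and every combination was measured on 1 array. The labels do not say whether a line is a single clone, what change the TET2M construct carries, or whether the arrays came from separately grown cultures. The error in the comparisons of lines and of glucose came from the departure of the 6 arrays from 1 shared glucose difference in all 3 lines, moderated by limma towards the spread of all genes, so each p-value speaks of scatter among these arrays, part of which can be technical.

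A class I molecule is a heavy chain, here HLA-B, HLA-C or HLA-E, folded around β2-microglobulin, the product of B2M, and a short peptide. The proteasome cuts peptides in the cytosol, the transporter made of TAP1 and TAP2 pumps them into the endoplasmic reticulum, and tapasin, the product of TAPBP, holds the empty heavy chain at the transporter until a peptide fits. PSMB9 is a catalytic subunit of the immunoproteasome, the form that interferon induces, and NLRC5 is a transactivator of class I genes that acts through the X and Y boxes of their promoters. Class I molecules show peptides to CD8 T cells, and melanomas often carry reduced class I.

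The values of the 6 arrays were close in distribution, with array medians of 2.96 to 3.03. Of 3 probe sets of TET2, 1 read 9.54 and 9.68 in TET2WT at high and normal glucose, 7.57 and 7.37 for TET2M, and 3.81 and 4.13 for Mock. Another read 6.64 and 6.87, 4.57 and 3.89, and 2.10 and 2.64 in the same order of lines, whereas the remaining one was flat, with 5.30 and 5.15 in TET2WT, 5.41 and 5.31 for TET2M, and 5.23 and 5.22 for Mock. In the pair of probe sets that set the lines apart, TET2 ran lower in TET2M than in TET2WT, and the form of the construct and its level cannot be told apart. Of 9 melanocyte markers measured, 4 had a mean over 6, led by SOX10 at 9.51, whereas the pigment genes MLANA, TYR and TYRP1 lay below the low-value limit of 2.64 on the log2 scale (the 40th percentile of probe set means). MITF, the master regulator of melanocytes, was lower in TET2WT, with 6.40 and 6.30, than in Mock, with 6.96 and 6.93 (difference -0.59 ± 0.11 SE, limma adjusted p = 0.0434). Over the 6 melanocyte markers tested, 4 differences between TET2WT and Mock were positive and 2 negative, with a median of 0.135, so the list did not fall as MITF did. Of 9 markers of monocytes and macrophages, 5 passed the low-value limit. The mean over the 9 markers was 3.38 and 3.42 in TET2WT, 3.09 and 3.19 in TET2M, and 3.18 and 3.30 in Mock. LAPTM5, a lysosomal protein of blood cells, was 2.19 higher in TET2WT than in Mock (adjusted p = 0.000878) and LYZ, lysozyme, differed from Mock by -0.76 (adjusted p = 0.0116), while the defining markers PTPRC, CD14, CSF1R and TYROBP each had a mean below the low-value limit. The highest mean was 3.28 among 9 markers of T and natural killer cells and 3.61 among 5 of B cells. Of the markers of keratinocytes, fibroblasts and endothelial cells, KRT14 at -2.40 and LUM at -1.06 passed as lower in TET2WT than in Mock. The part of these markers in the results on class I genes was not tested.

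TAP1, TAP2, TAPBP, PSMB9 and the heavy chain genes lie in the major histocompatibility complex on chromosome 6, B2M lies on chromosome 15 and NLRC5 on chromosome 16. For 7 of the 9 genes, all but HLA-E and NLRC5, the 250 bases before the annotated start were in the RefSeq table of assembly GRCh38.p14. The windows of the 5 genes whose values are set side by side in the comparisons are shown, read along the gene's own strand. They lie at chr15:44711267-44711516 (plus strand) for B2M, chr6:31357180-31357429 (minus strand) for HLA-B, chr6:31272093-31272342 (minus strand) for HLA-C, chr6:32853705-32853954 (minus strand) for TAP1 and chr6:32853942-32854191 (plus strand) for PSMB9. Capitals mark matches, on either strand, to the core of an interferon regulatory factor site (AANNGAAA), the core of the X2 box bound by CREB and ATF proteins (TGACG), the core of the Y box bound by NF-Y (CCAAT), and the NF-kB consensus. Neighbouring IRF matches in B2M and in TAP1 overlap, as do the NF-kB matches in HLA-B.
B2M: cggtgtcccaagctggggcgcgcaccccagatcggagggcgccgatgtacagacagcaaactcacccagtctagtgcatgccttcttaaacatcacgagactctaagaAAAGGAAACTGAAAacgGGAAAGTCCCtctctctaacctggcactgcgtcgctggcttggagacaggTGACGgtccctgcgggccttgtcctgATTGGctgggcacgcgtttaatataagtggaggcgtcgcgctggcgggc
HLA-B: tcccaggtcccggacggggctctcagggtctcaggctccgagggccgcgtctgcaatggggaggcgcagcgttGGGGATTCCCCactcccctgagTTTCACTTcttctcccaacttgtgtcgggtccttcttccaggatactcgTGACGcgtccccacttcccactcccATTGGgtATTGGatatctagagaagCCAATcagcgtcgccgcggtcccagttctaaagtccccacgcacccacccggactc
HLA-C: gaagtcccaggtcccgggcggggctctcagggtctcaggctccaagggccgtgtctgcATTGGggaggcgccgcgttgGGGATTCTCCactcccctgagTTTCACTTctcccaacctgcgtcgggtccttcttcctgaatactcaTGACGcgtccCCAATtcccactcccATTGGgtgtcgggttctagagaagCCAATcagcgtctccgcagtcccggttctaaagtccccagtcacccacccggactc
TAP1: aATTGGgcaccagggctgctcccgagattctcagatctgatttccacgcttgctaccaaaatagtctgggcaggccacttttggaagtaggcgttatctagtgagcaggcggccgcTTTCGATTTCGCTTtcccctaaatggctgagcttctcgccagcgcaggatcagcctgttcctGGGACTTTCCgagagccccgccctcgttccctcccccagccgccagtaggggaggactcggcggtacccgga
PSMB9: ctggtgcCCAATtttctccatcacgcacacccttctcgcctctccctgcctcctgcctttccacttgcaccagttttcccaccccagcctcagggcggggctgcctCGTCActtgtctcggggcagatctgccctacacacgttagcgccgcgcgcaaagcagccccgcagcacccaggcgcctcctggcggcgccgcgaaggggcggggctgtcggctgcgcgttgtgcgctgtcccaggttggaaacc

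The windows of B2M, HLA-B and HLA-C held a match to each motif, with the X2 core upstream of a Y core, and so did 13 of all 35095 windows of the same length (0.037%). The HLA-B and HLA-C windows were identical at 226 of 254 aligned positions (89%). TAP1 and PSMB9 lie head to head, with 487 bases between their starts, and their windows shared 13 bases. The TAP1 window held IRF and NF-kB matches and a Y core but no X2 core, and the PSMB9 window held an X2 core and a Y core but no match to the IRF core or the NF-kB consensus. Among the 7 windows, 6 held the IRF core, against 20.3% of all windows, 5 held the X2 core (21.2%), 5 the Y core (32%) and 5 the NF-kB consensus (9.95%). A match is a description of letters and not a measured site.

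**Figure D1:**
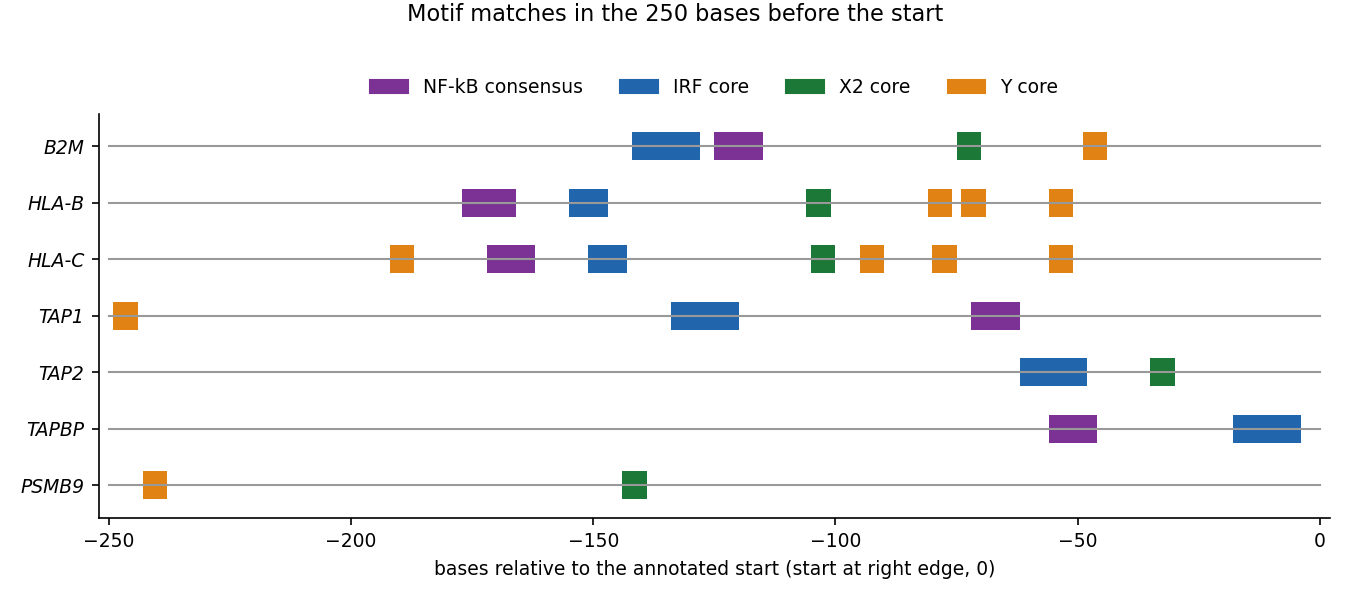
Positions of motif matches in the 250 bases before the annotated start of the 7 genes with a window, in bases relative to the start at the right edge, with 1 colour a motif. B2M, HLA-B and HLA-C carry the X2 core upstream of a Y core, and PSMB9 carries neither an IRF nor an NF-kB match.

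In TET2WT cells, PSMB9 of the immunoproteasome rose 1.48-fold over Mock cells, and of the 9 genes it alone passed limma's test at an adjusted p under 0.05. HLA-B, HLA-C, TAP1 and NLRC5 had values 1.27-fold to 1.43-fold those of Mock but did not pass, with adjusted p-values between 0.0576 and 0.113, and B2M, HLA-E, TAP2 and TAPBP had log2 differences between -0.18 and 0.16. Over all 14427 genes tested, 4.21% passed in this comparison, 2.01% as higher in TET2WT. Without an adjustment, 5 of the 9 genes had a p under 0.05, against 20.2% of all genes. The median difference was 0.34 over the 9 genes and -0.01 over all genes.

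PSMB9, measured by 1 probe set, read 6.82 and 6.93 in TET2WT at high and normal glucose, 6.32 and 6.28 in TET2M, and 6.40 and 6.21 in Mock. Both TET2WT arrays stood above the other 4 arrays, which lay between 6.21 and 6.40. The difference between TET2WT and Mock was 0.57 ± 0.11 (SE, 95% interval 0.31 to 0.83, adjusted p = 0.0434), with 2 arrays a line. With any 1 of the 6 arrays left out, the difference ran from 0.46 to 0.68. The call was lost in these fits, which have fewer degrees of freedom, as were nearly all calls over all genes. The loss there is therefore not particular to PSMB9. PSMB9 was called in 6 of 15 alternatives.

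TAP1, the transporter subunit encoded next to PSMB9, read 6.88 and 6.94 in TET2WT, 6.41 and 6.58 in TET2M, and 6.45 and 6.50 in Mock. Both TET2WT arrays again lay above the other 4 arrays. The difference from Mock was 0.43 ± 0.09 (SE), which missed the threshold with an adjusted p of 0.0576, and its 95% interval ran from 0.22 to 0.65. TAP2, the second transporter subunit, showed no such separation: it read 6.55 and 6.40 in TET2WT, 6.52 and 6.48 in TET2M, and 6.47 and 6.50 in Mock. Its groups overlapped, and the difference from Mock was -0.01 ± 0.09 with a 95% interval of -0.24 to 0.22, which does not show that TAP2 stayed the same.

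HLA-B, the classical heavy chain, read 10.22 and 10.40 in TET2WT, 9.70 and 10.04 in TET2M, and 9.85 and 10.09 in Mock, all as log2 values of its brightest probe set. Both TET2WT arrays were above the other 4 arrays, and TET2M and Mock overlapped. HLA-C read 10.00 and 10.25 in TET2WT, 9.56 and 9.80 in TET2M, and 9.65 and 9.89 in Mock, which is the same order of lines as for HLA-B. The differences from Mock were 0.34 ± 0.09 for HLA-B (adjusted p = 0.113) and 0.36 ± 0.09 for HLA-C (adjusted p = 0.0862), and neither passed. All 7 probe sets of HLA-B and HLA-C, and 2 of the 3 of HLA-E, carry the design code for probes that may also match related sequences, so the values cannot be divided with certainty between these and other heavy chain genes. In cells measured in bulk, more cells with the RNA and more RNA in each cell cannot be told apart.

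HLA-E, the heavy chain that presents leader peptides to natural killer cell receptors, read 9.17 and 9.05 in TET2WT, 9.04 and 9.10 in TET2M, and 8.88 and 9.03 in Mock. Its lower TET2WT array, at 9.05, stood just above the higher Mock array, at 9.03, and the difference from Mock was 0.16 ± 0.10 (adjusted p = 0.461). These values come from a probe set that may also match related sequences. The HLA-E probe set without that code went the other way, at -0.30 from Mock. B2M, the shared light chain, read 12.02 and 12.08 in TET2WT, 11.98 on both TET2M arrays, and 11.89 and 12.01 in Mock, a span of 0.19 over the 6 arrays. Its difference from Mock was 0.10 ± 0.09 (95% interval -0.12 to 0.32). TAPBP read 5.83 and 5.98 in TET2WT, 5.85 and 6.05 in TET2M, and 5.97 and 6.21 in Mock. It was the 1 gene of the 9 with a difference from Mock below -0.1, at -0.18 ± 0.09 (adjusted p = 0.307), and the arrays of the lines overlapped.

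NLRC5, the transactivator, read low on every array but above the low-value limit, with 3.36 and 3.71 in TET2WT, 3.25 and 3.73 in TET2M, and 2.95 and 3.08 in Mock. All 4 arrays of the TET2 lines lay above both Mock arrays. TET2WT was 0.52 ± 0.11 higher than Mock (adjusted p = 0.0655). With each gene read by its brightest probe set, both TET2WT arrays were above both Mock arrays for 7 of the 9 genes, against 19.7% of all genes. TAP2 and TAPBP were the exceptions, and for HLA-E the probe set without the code for related matches lay below Mock. For B2M the lower TET2WT array, at 12.02, stood just above the higher Mock array, at 12.01, and its other probe sets did not separate TET2WT from Mock.

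**Figure D2:**
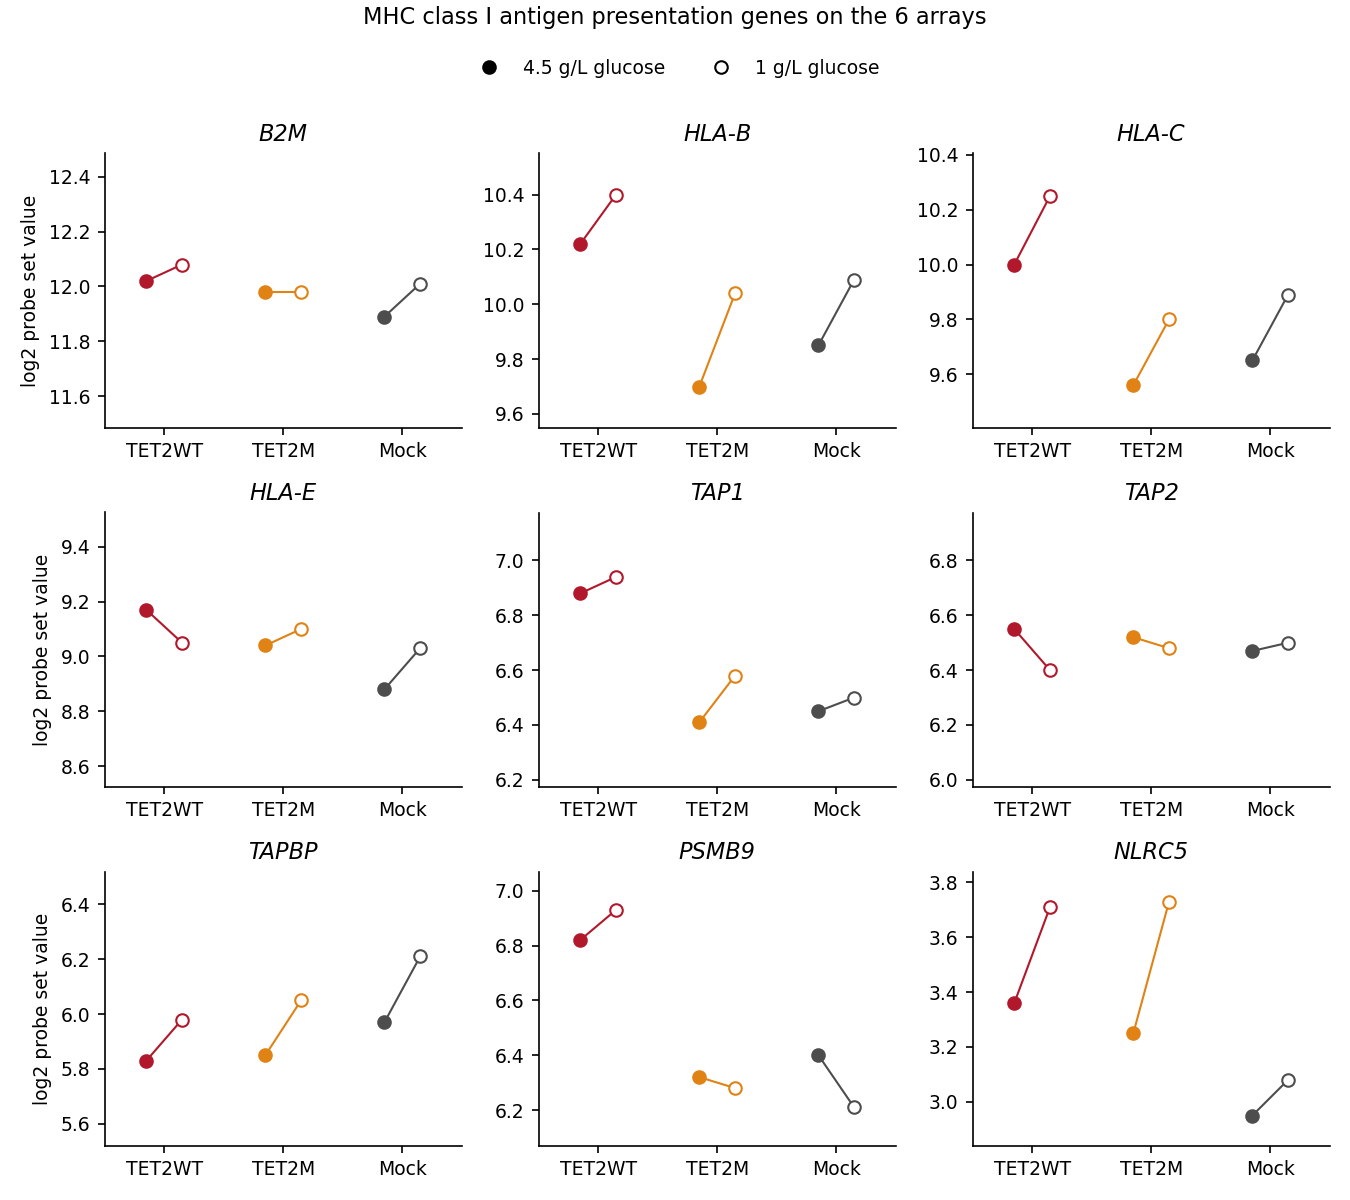
Log2 probe set values of the 9 genes on each of the 6 arrays, 1 panel a gene, with TET2WT, TET2M and Mock from left to right, high glucose as filled and normal glucose as open points, and a line joining the arrays of 1 cell line. Each vertical axis spans the same log2 range, and PSMB9 and TAP1 stand higher in TET2WT than in the other lines, whereas NLRC5 stands lower in Mock.

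The comparison of TET2WT with TET2M asks whether the lines of the wild-type and the altered construct differ. PSMB9 again passed alone among the 9 genes, at 0.58 ± 0.11 (95% interval 0.32 to 0.83, adjusted p = 0.0494), both TET2WT arrays being higher, and 3.29% of all genes passed, 1.86% as higher in TET2WT. HLA-C at 0.45 ± 0.09 (adjusted p = 0.0562), HLA-B at 0.44 ± 0.09 (adjusted p = 0.0691) and TAP1 at 0.42 ± 0.09 (adjusted p = 0.0764) came closest among the others. These 4 genes had an unadjusted p under 0.05, against 17.6% of all genes. By the brightest probe set, each of them, as well as B2M, had both TET2WT arrays above both TET2M arrays, which held for 21.2% of all genes. A second bright probe set of B2M had this pattern too, at 0.12, and its dimmest had the opposite one, at -0.335. B2M, HLA-E, NLRC5, TAP2 and TAPBP had differences between -0.045 and 0.07. The 95% interval for NLRC5 was -0.23 to 0.32, which leaves a difference in either direction undetected at this precision. The median over the 9 genes was 0.07, against 0 over all genes. With any 1 of the 6 arrays left out, the PSMB9 difference ran from 0.46 to 0.69. Its call was lost in these fits, which have fewer degrees of freedom, as were the calls of all other genes. PSMB9 was called in 5 of 15 alternatives.

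Between TET2M and Mock, none of the 9 genes passed limma's test, and 14 of all 14427 genes did (0.097%). NLRC5 was the 1 gene with an unadjusted p under 0.05, against 9.52% of all genes, at 0.48 ± 0.11 (95% interval 0.20 to 0.75, adjusted p = 0.36). Both TET2M arrays of NLRC5 and of HLA-E stood above both Mock arrays, a pattern of 12.8% of all genes. For HLA-E the difference turned to -0.025 with the mean of its probe sets. The HLA-E probe set without the code for related matches was at -0.245. PSMB9 differed by -0.005 ± 0.11 and TAP1 by 0.02 ± 0.09. HLA-B was at -0.10 ± 0.09, HLA-C at -0.09 ± 0.09 and TAPBP at -0.14 ± 0.09, while B2M (0.03), TAP2 (0.015) and HLA-E (0.12) lay on the other side of 0. The comparisons of TET2WT and of TET2M with Mock share the Mock arrays, so their values are not independent.

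**Figure D3:**
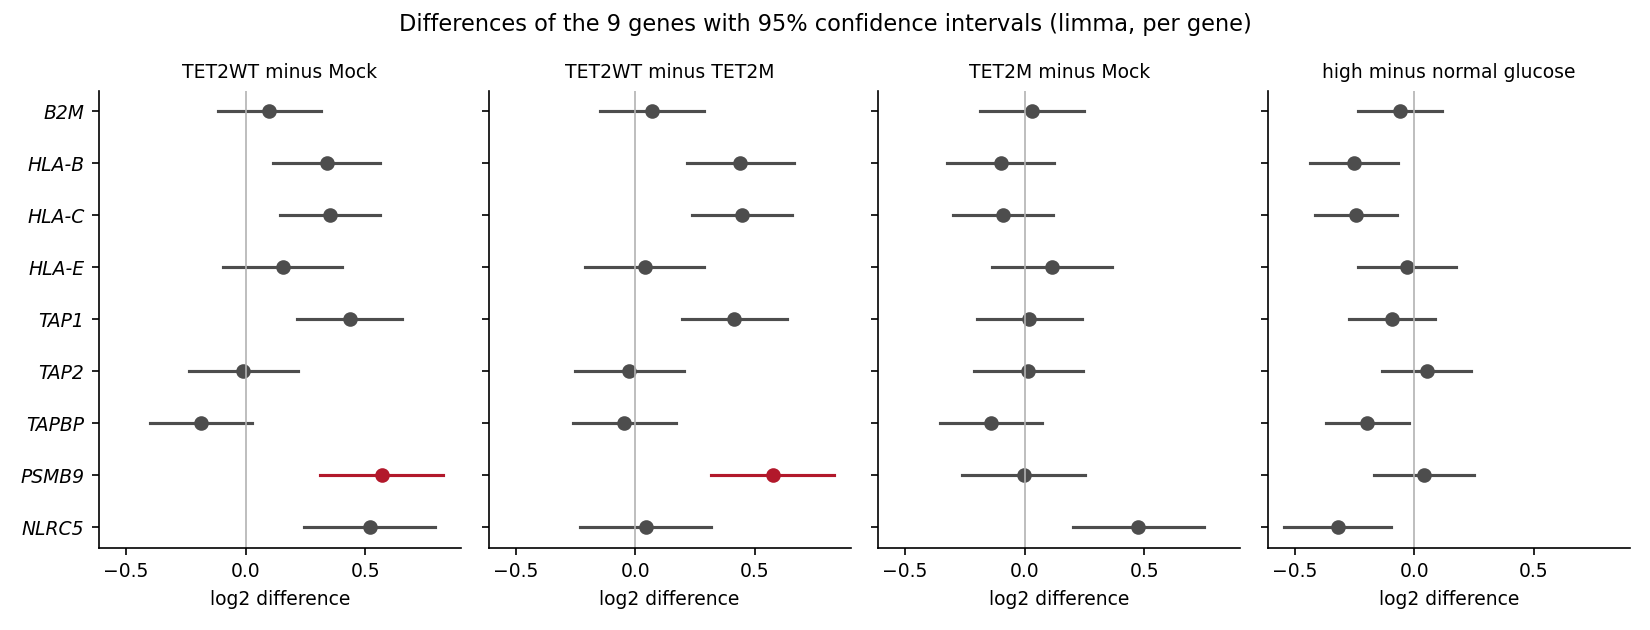
Log2 differences of the 9 genes with 95% intervals from limma in 4 comparisons: TET2WT minus Mock, TET2WT minus TET2M, TET2M minus Mock, and high minus normal glucose. Red marks the 2 differences that passed at an adjusted p under 0.05, both of PSMB9, and the intervals of HLA-B, HLA-C and TAP1 exclude 0 in both comparisons of TET2WT.

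High and normal glucose were compared across the 3 lines. The heavy chain genes HLA-B and HLA-C read lower in high than in normal glucose in every line, as did TAP1, TAPBP and NLRC5, but no gene of the 9 passed limma's test, and 1 of all 14427 genes did (0.00693%). These 5 genes were lower in 3 of 3 lines, against 20.7% of all genes. HLA-B differed between high and normal glucose by -0.18 in TET2WT, -0.34 in TET2M and -0.24 in Mock. HLA-C differed by -0.25, -0.24 and -0.24 in the same lines. Over the lines the differences were -0.25 ± 0.07 for HLA-B (adjusted p = 0.227) and -0.24 ± 0.07 for HLA-C (adjusted p = 0.22).

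NLRC5 had the most negative glucose difference of the 9 genes, -0.32 ± 0.09 (adjusted p = 0.219), made of -0.35 in TET2WT, -0.48 in TET2M and -0.13 in Mock. TAPBP differed by -0.20 ± 0.07 (adjusted p = 0.284), with -0.15, -0.20 and -0.24 in the same order of lines. TAP1 was at -0.09 ± 0.07, B2M at -0.06 ± 0.07, HLA-E at -0.03 ± 0.08, PSMB9 at 0.04 ± 0.09 and TAP2 at 0.05 ± 0.08. PSMB9 differed between high and normal glucose by -0.11 in TET2WT, 0.04 in TET2M and 0.19 in Mock. An unadjusted p under 0.05 was found for 4 of the 9 genes, against 15.4% of all genes, and the median was -0.093, against -0.02 over all genes. With the variance fitted against intensity, HLA-B and HLA-C passed as lower in high glucose, with adjusted p-values of 0.0111 and 0.0101, in a fit where 573 genes passed.

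The response to glucose in TET2WT was set against the mean response in TET2M and Mock. No gene of all 14427 passed this test, 9.19% had an unadjusted p under 0.05, and none of the 9 genes did. The differences of responses ran from -0.22 ± 0.13 for PSMB9 (adjusted p = 0.586) to 0.22 ± 0.11 for HLA-E (adjusted p = 0.566), and for HLA-B and HLA-C they were 0.11 ± 0.11 and -0.01 ± 0.10. The 95% interval reached 0.59 for HLA-E and -0.65 for PSMB9, and the widest, that of NLRC5, ran from -0.75 to 0.66. Differences of responses within these intervals are therefore not excluded with 6 arrays.

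Taken probe set by probe set, 22 of the 23 probe sets passed the low-value limit, and the exception was a probe set of TAP2 that read 2.18 to 2.57. None of the 22 passed limma's test among 27030 probe sets in any of the 4 comparisons. Against Mock, 2.63% of all probe sets passed for TET2WT, 0.0555% for TET2M and, for glucose, 0.0037%, and against TET2M 1.85% passed for TET2WT. An unadjusted p under 0.05 was found for 11 of the 22 in TET2WT against Mock (17.8% of all probe sets), 10 against TET2M (15.1%), 2 in TET2M against Mock (8.61%) and 7 for glucose (13.9%). PSMB9 had adjusted p-values of 0.0623 against Mock and 0.0697 against TET2M at this level, where more features are tested.

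The 7 probe sets of HLA-B and HLA-C read alike. All 7 were higher in TET2WT than in Mock on both arrays, by 0.29 to 0.37, and 17.4% of all probe sets had this pattern. Against TET2M all 7 were higher, by 0.32 to 0.53, with 6 of them apart on both arrays (19.4% of all probe sets). All 7 were lower in high glucose in 3 of 3 lines, by -0.25 to -0.14, a pattern of 18.4% of all probe sets. Since their probes may match the same sequences, they are not 7 separate measurements.

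Other genes had probe sets that disagreed. The third probe set of HLA-E alone lacks the code for probes that may match related sequences. It differed by -0.30 between TET2WT and Mock, with 6.20 and 6.21 in TET2WT against 6.61 and 6.40 in Mock. In TET2M it differed from Mock by -0.245. The HLA-E probe sets that carry the code differed by 0.16 and 0.14 between TET2WT and Mock. The dimmest probe set of B2M was 0.26 higher in TET2M than in Mock, with 3.60 and 3.77 in TET2M against 3.50 and 3.36 in Mock, while the bright ones differed by 0.03 and -0.075. A second bright probe set of TAP2 was at -0.15 in TET2WT and -0.23 in TET2M relative to Mock. For TAPBP, 2 probe sets were at -0.18 and -0.19 in TET2WT relative to Mock and the dimmest at 0.095. The direction of HLA-E, B2M, TAP2 and TAPBP therefore depends on the probe set.

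**Figure D4:**
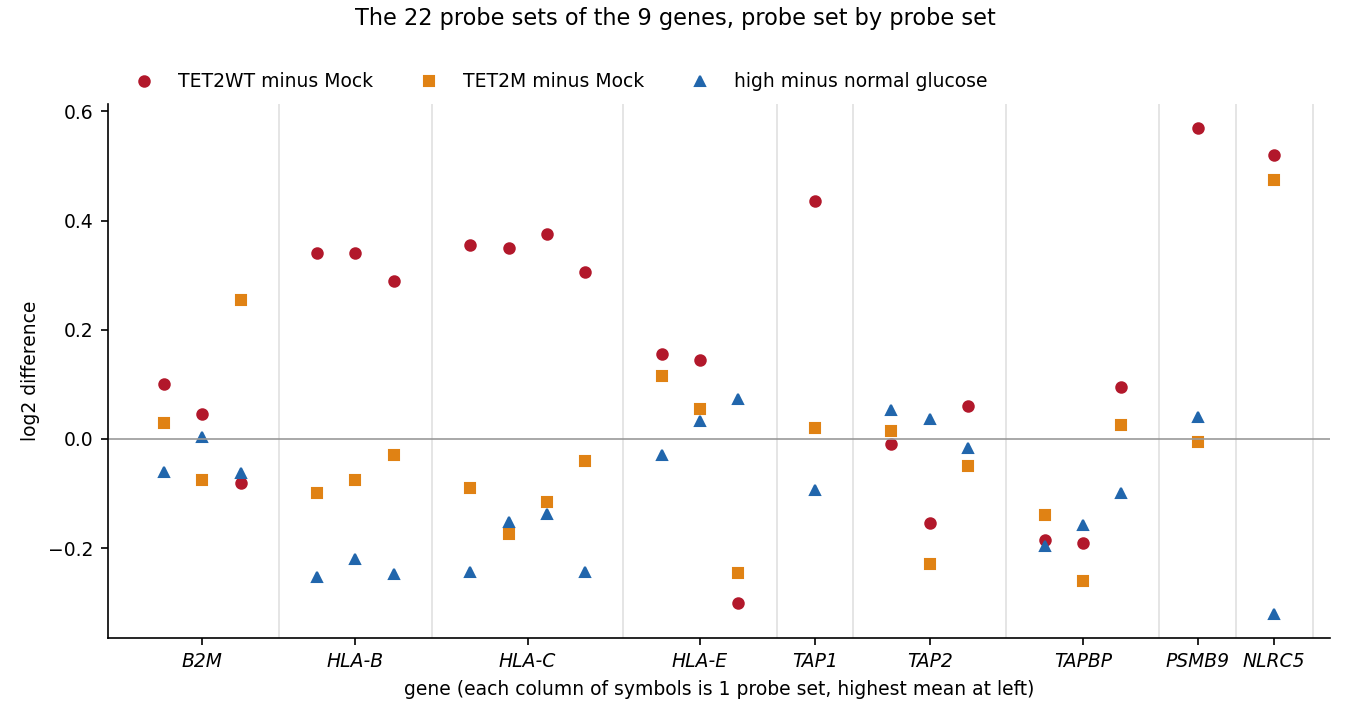
Log2 differences of the 22 probe sets past the low-value limit, grouped by gene with the brightest probe set at left, for TET2WT minus Mock (circles), TET2M minus Mock (squares) and high minus normal glucose (triangles). The 7 probe sets of HLA-B and HLA-C lie together in each comparison, and those of HLA-E, B2M, TAP2 and TAPBP fall on both sides of 0.

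The rest of the pathway was followed through gene lists. Of 5 other genes listed with the immunoproteasome and its activator, not all of them particular to it, 0 passed in TET2WT against Mock. Among them 3 had an unadjusted p under 0.05, against 20.2% of all genes. The 3 were PSME1, PSME3 and POMP, the last with a lower value in TET2WT. The catalytic subunits PSMB8 and PSMB10 were not among them. The median of the 5 genes was 0.23. PSME1, a subunit of the PA28 activator, was at 0.31 ± 0.12, PSME3, a related activator, at 0.26 ± 0.10, PSMB8, the immunoproteasome subunit encoded beside PSMB9 and TAP1, at 0.23 ± 0.09 (adjusted p = 0.249), and PSMB10 at 0.11 ± 0.09. POMP, the proteasome assembly factor, was on the other side of 0, at -0.23 ± 0.09 (adjusted p = 0.225). Of 13 genes of the constitutive 20S proteasome, 0 passed and 0 had an unadjusted p under 0.05, with a median of 0.015.

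Of 8 genes of other heavy chains and their relatives, 0 passed and 2 had an unadjusted p under 0.05, a share near the 20.2% of all genes, with a median of 0.11. HLA-G read 8.45 and 8.58 in TET2WT, 8.18 and 8.40 in TET2M, and 8.15 and 8.31 in Mock, a difference of 0.28 ± 0.09 from Mock (adjusted p = 0.148). MR1, which presents metabolites to T cells, was at 0.28 ± 0.12, while HFE, the heavy chain relative that controls iron uptake, was at -0.31 ± 0.10 and CD1D, which presents lipids, at -0.29 ± 0.15. Heavy chain genes share much of their sequence, so these values are uncertain between genes too. Of 11 genes of peptide loading and trimming, 0 passed and 1 had an unadjusted p under 0.05, with a median of 0.05. That gene was TAPBPL, the tapasin relative that edits peptides, which read 4.08 and 4.29 in TET2WT, 3.78 and 3.66 in TET2M, and 3.51 and 3.75 in Mock (0.56 ± 0.12 from Mock, adjusted p = 0.0638). The chaperones CALR and PDIA3 were at 0.08 ± 0.09 and 0.02 ± 0.09, the trimming enzyme ERAP1 was at 0.13 ± 0.09, and all 5 probe sets of ERAP2 were below the low-value limit.

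Among 15 regulators of class I transcription, 0 passed in TET2WT against Mock and 4 had an unadjusted p under 0.05, a share near the 20.2% of all genes, with a median of -0.01. IRF2, a factor of the IRF site, was at 0.36 ± 0.09 (adjusted p = 0.0959), IRF3 at 0.31 ± 0.10, IRF1 at 0.13 ± 0.10 and RFX5, a subunit of the factor that binds the X box, at 0.01 ± 0.09. RFXAP, its partner, read 3.29 and 3.35 in TET2WT, 3.68 and 3.58 in TET2M, and 4.39 and 3.69 in Mock (-0.72 ± 0.19, adjusted p = 0.103). EZH2, the methyltransferase of Polycomb, was at -0.39 ± 0.13 (adjusted p = 0.16).

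Interferon-induced genes outside the 9 were the list with the most calls. Of 36 tested, 12 rose in TET2WT against Mock and 0 fell, with a median of 0.37, where 2.01% of all genes were higher. The list had 40 genes with a probe set, and IFI27, IFI44L, RSAD2 and TRIM22 had means below the low-value limit. Without that limit 12 of the 40 rose, with a median of 0.29. IFITM1, an antiviral membrane protein, read 4.53 and 4.57 in TET2WT, 3.07 and 3.02 in TET2M, and 2.66 and 2.99 in Mock (1.73 ± 0.12 from Mock, adjusted p = 0.00194). PARP9 rose by 0.93 ± 0.14, USP18, which removes ISG15 from proteins, by 0.85 ± 0.09 and ISG20 by 0.81 ± 0.13. Against TET2M, 7 of the 36 rose and 0 fell, with a median of 0.34, and between TET2M and Mock 0 passed and 4 had an unadjusted p under 0.05, near the 9.52% of all genes, with a median of 0.03. When any 1 of the 6 arrays was left out, the medians of the 36 ran from 0.22 to 0.44 against Mock and from 0.26 to 0.36 against TET2M. The calls of the 36 in both comparisons of TET2WT were lost in these fits, which have fewer degrees of freedom. So were nearly all calls over all genes. Without a glucose term, 5 of the 36 rose against Mock and 4 against TET2M. The most negative gene of the list was IFI44, which read 4.88 and 5.75 in TET2WT, 5.76 and 5.73 in TET2M, and 6.08 and 5.88 in Mock (-0.66 ± 0.25 from Mock, adjusted p = 0.216). OAS1 was at -0.075 ± 0.15, OAS3 at -0.015 ± 0.09 and OASL at 0.01 ± 0.09. Of 12 interferon receptors and signal transducers, 1 passed as lower in TET2WT than in Mock, against 317 of all 14427 genes. It was the feedback inhibitor SOCS3, with 4.13 and 4.36 in TET2WT, 4.11 and 4.37 in TET2M, and 4.97 and 5.11 in Mock (-0.79 ± 0.09, adjusted p = 0.0105).

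**Figure D5:**
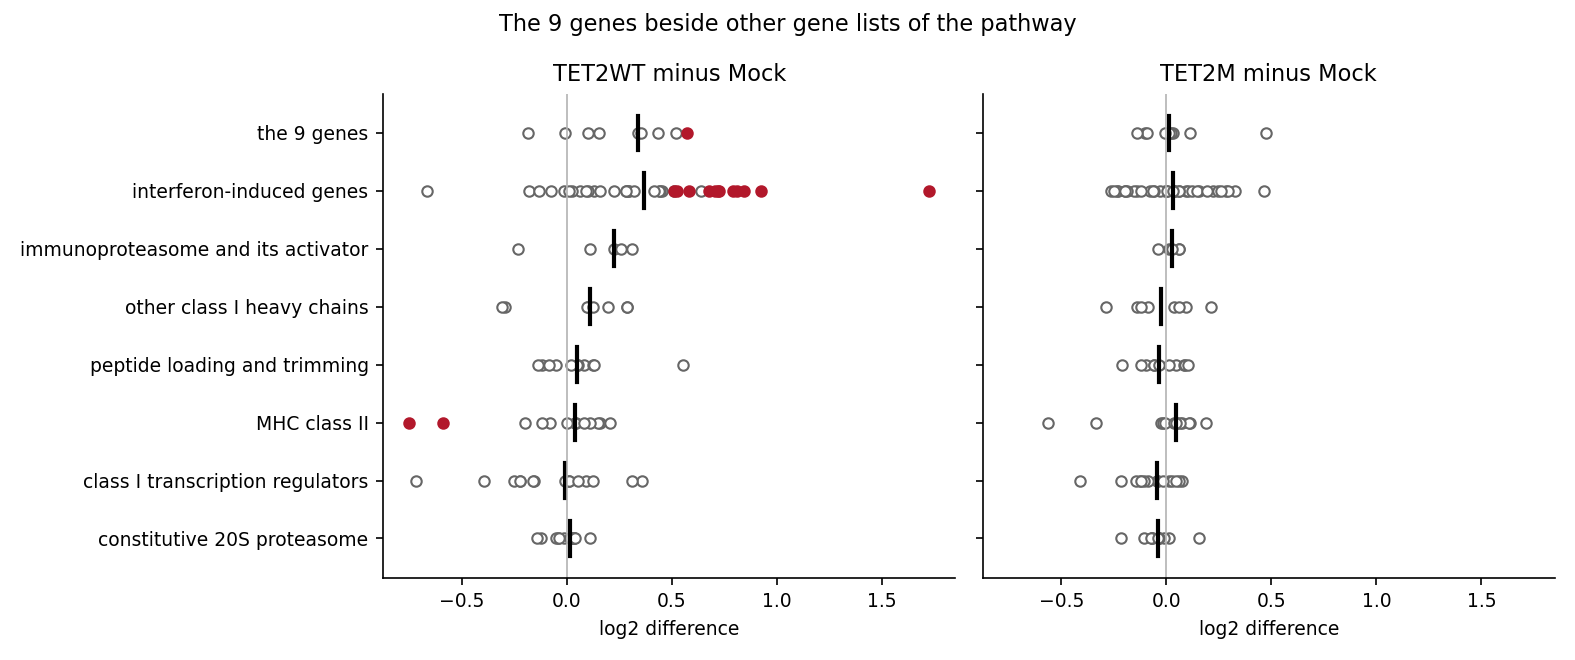
Log2 differences from Mock of each tested gene, TET2WT at left and TET2M at right, for the 9 genes and 7 further lists, with genes that passed at an adjusted p under 0.05 in red and the median of each list as a black bar. The interferon-induced genes hold 12 red points in TET2WT and 0 in TET2M.

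The genes that lie between HLA-F and TAPBP on chromosome 6 were counted as a list chosen after the values had been seen. Of 104 tested, the 9 genes left out, 0 were higher and 1 lower in TET2WT than in Mock, and their median was 0.037. Over all 14427 genes, 290 were higher and 317 lower in this comparison, which is the background for each count here. The lower gene among the 104 was HLA-DOA, a regulator of class II peptide loading, at -0.59 ± 0.11 (adjusted p = 0.049). Among 13 genes of MHC class II, 0 rose and 2 fell, HLA-DOA and the protease gene CTSS, which read 2.92 and 3.06 in TET2WT, 2.98 and 3.37 in TET2M, and 3.80 and 3.68 in Mock. Of 9 ligands of natural killer cell receptors and checkpoint receptors, NECTIN2 rose, with 5.60 and 5.52 in TET2WT, 4.71 and 4.98 in TET2M, and 4.93 and 4.86 in Mock. Each call of a single listed or marker gene named here for TET2WT against Mock was also lost when any 1 array was left out, as were nearly all calls over all genes. HLA-DOA passed in 2 of 14 alternatives.

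Variation among the 9 genes was uneven. Over the 6 arrays the values spanned 0.78 for NLRC5, 0.72 for PSMB9, 0.70 for HLA-B, 0.69 for HLA-C, 0.53 for TAP1, 0.38 for TAPBP, 0.29 for HLA-E, 0.19 for B2M and 0.15 for TAP2. With each gene centred on its mean, the mean of the 9 was 0.11 in TET2WT at high and 0.21 at normal glucose, -0.14 and 0.018 in TET2M, and -0.15 and -0.04 in Mock. Both TET2WT arrays were the highest, normal glucose lay above high glucose in each line, and the arrays of TET2M and Mock overlapped. As a description over 6 arrays that share lines and media, the correlation of a gene with the mean of the other genes was 0.94 for TAP1, 0.93 for HLA-C and for HLA-B, 0.84 for B2M, 0.69 for PSMB9, 0.59 for NLRC5 and 0.57 for HLA-E, and it was below 0 for TAPBP (-0.16) and TAP2 (-0.42). HLA-B and HLA-C each entered the mean used for the other. Since their probes may match the same sequences, their correlations are partly those of a measurement with itself.

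Among 8012 genes outside the 9 whose span was at least that of the centred mean (0.36), SDC3, DLK2, HLA-G, TLE3 and CDKN1C followed it most closely, with Pearson correlations of 0.994, 0.993, 0.992, 0.992 and 0.989 over the 6 arrays, and 298 genes exceeded 0.9. SDC3, a heparan sulfate proteoglycan of the cell surface, read 7.29 and 7.58 in TET2WT, 6.26 and 6.77 in TET2M, and 6.21 and 6.58 in Mock. CDKN1C, an inhibitor of cyclin-dependent kinases, read 7.51 and 7.77 in TET2WT, 6.32 and 6.90 in TET2M, and 6.38 and 6.73 in Mock. Both were highest in TET2WT and lower in high than in normal glucose in all 3 lines. These correlations carry no test. Heavy chain probe sets may match related genes, so the values of HLA-G may not be separate from those of HLA-B, HLA-C and HLA-E.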

How the data were processed

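Total RNA was hybridised to 6 Affymetrix arrays, 1 for each of 3 lines at 2 glucose concentrations. The deposited files hold log2 values per probe set. Affymetrix Expression Console produced them, per the submitters' processing notes. Its version and its probe summary and background method were not given in the sources used here. Values between 1.56 and 13.78 set the log base. Sorted columns lay within 0.12 of each other, a sign of between-array normalization before deposit, and none was added here. For arrays, their number limits the precision.

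Of 54675 probe sets, 62 were controls. To the others the platform's annotation gave a single gene symbol for 41091, several for 1801 and none for 11721. For 41037 the symbol was updated through the gene ID in the RefSeq genes of GRCh38.p14, and 54 kept the annotation's symbol. No probe set named 1 of the 9 genes together with another. Probe sets with a mean under 2.64 (the 40th percentile) were dropped, and the probe set with the highest mean stood for its gene, which left 14427 genes. limma 3.58.1 in R 4.3.3 was fitted on line plus glucose, which left 2 residual degrees of freedom beside a prior of 3.97. Another fit let TET2WT have its own glucose term, which left 1 residual degree of freedom beside a prior of 1.72. Tests were two-sided, with Benjamini-Hochberg adjustment over all genes and a threshold of 0.05. A further fit took each of 27030 probe sets as its own row. The software was the R package data.table in version 1.17.8, pandas 2.3.3, Biopython 1.88 (which aligned the HLA-B and HLA-C windows), matplotlib 3.10.9 and Python 3.11.15.

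The 9 genes, the gene lists and the tests were chosen with earlier results of these data known. The text names all 9 genes and, of each list, at most 4 genes with the largest differences plus IRF1, IRF2, RFX5, PSMB8, PSMB10, PSME1, ERAP1, ERAP2, CALR and PDIA3. It also names the 5 genes with the pattern most like the 9. Any other gene named, among them OAS1, OAS3 and OASL, was chosen after its values were seen. Alternatives covered the probe set rule, the low-value limit, normalization, the variance model, the model terms and each array left out. The line term pairs the high and normal glucose arrays of each line, and the labels carry no replicate numbers.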

Additional observations from a re-analysis of the deposited data

How the results depend on the processing

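The fit already pairs the glucose arrays of a line through the line term, and the labels give no replicate numbers for another pairing. With 6 arrays and 2 residual degrees of freedom, which genes pass is sensitive to the variance model, and the differences themselves are less so. PSMB9 was called in TET2WT against Mock in 6 of 15 alternatives and against TET2M in 5 of 15. The number of the 9 genes that passed, 1 in both comparisons, was 2 in both with the mean of a gene's probe sets, with quantile and with cyclic loess normalization. At the 60th percentile as the low-value limit (3.61) it was 2 against Mock and 4 against TET2M, where NLRC5, with a mean of 3.347, was not tested. With an intensity trend in the variance it was 5 and 4. It was 0 in both with each array left out in turn (0 to 0), without a glucose term, with the 4 arrays of the lines compared and at the probe set level, and 0 against TET2M without a low-value limit. For glucose it was 2 with the trend. Fits with fewer arrays have fewer degrees of freedom.

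Over all genes, the 607 calls of TET2WT against Mock became 1527 with the trend, 317 without a glucose term, 16 with 4 arrays, and 0 to 16 with 1 array left out. The 475 calls against TET2M became 1248, 267, 0, and 0 to 0 under the same alternatives. The 14 calls of TET2M against Mock became 149, 7, 0, and 0 to 0, and were 25 with the mean of probe sets and 22 at the 60th percentile. For glucose, 1 call became 5 with the mean of probe sets, 2 with no low-value limit, 5 at the 60th percentile, 5 with quantile and 3 with cyclic loess normalization, 573 with the trend, 0 without a line term, and 0 to 0 with arrays or lines left out. The cause of these changes was not tested.

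Signs turned for differences of at most 0.115 in size. The largest was HLA-E in TET2M against Mock, which became -0.025 under the mean of probe sets. Under the same alternative HLA-E became 0.026 for glucose, TAP2 -0.088 in TET2M against Mock and 0.053 in TET2WT against TET2M, where B2M became -0.048 and TAPBP 0.032, and HLA-C became 0.093 in the TET2WT-specific response. Under quantile and cyclic loess normalization, TAP2 was 0.04 and 0.04 in TET2WT against Mock, and PSMB9 was 0.038 and 0.029 in TET2M against Mock. With arrays left out, glucose differences ran from -0.105 to 0.03 for HLA-E and from -0.035 to 0.115 for PSMB9. TAP2 ran from -0.082 to 0.062 in TET2WT against Mock, and in TET2M against Mock B2M ran from -0.015 to 0.075, TAP1 from -0.037 to 0.078, TAP2 from -0.048 to 0.077 and PSMB9 from -0.117 to 0.107. In TET2WT against TET2M, HLA-E ran from -0.072 to 0.153, TAP2 from -0.098 to 0.047 and NLRC5 from -0.075 to 0.165.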
